A study of Mus musculus with 4 samples.

Results

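The genes described here encode the proteasome and the proteins that load its peptides onto MHC class I molecules. They were taken by name from the array's annotation: every gene whose single symbol began with Psma, Psmb, Psmc, Psmd, Psme, Psmf or Psmg, and Tap1, Tap2, Tapbp, B2m and Erap1. The rule found 54 of the 18193 genes with a single symbol, on 114 probe sets. The rule itself uses names and no expression value. Of the 54, 53 had a probe set above the filter on dim probe sets and 1, Psmb11, the thymus-specific catalytic subunit, did not. Psme2, the partner of Psme1, shared its probe set with a second symbol and is therefore not among them. Psmc3ip and Psme3ip1 carry the prefix but are not proteasome subunits.

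RNA was measured on 4 Affymetrix Mouse430_2 arrays of macrophages cultured from mouse bone marrow for 6 days in recombinant human M-CSF. All cells, controls included, were MyD88 -/-, so they lacked the adaptor of most Toll-like receptors and of the interleukin-1 receptor. The unstimulated group (2 arrays, 0 min) received no stimulus, and the zymosan group (2 arrays, 120 min) was given zymosan, particles of yeast cell wall, at 100 ug/ml over 2 h. The labels give no strain, age or sex. They also leave unsaid whether the 2 arrays of a group hold RNA of different animals or dishes, so the p-values refer to the spread among these arrays and that spread may be technical. Wild-type cells were not analysed here, and no difference below can be assigned to the loss of MyD88.

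Per the file headers, the unstimulated arrays were hybridized 16 days apart. Both zymosan arrays followed on day 153, with a different operator and project name. Day, operator and stimulus therefore cannot be told apart in any difference below. LPS appears in the title of an unstimulated array and PIC in that of the other. All 8 macrophage markers on a list were measured and 5 fell, with a mean log2 level of 11.6 and 11.8 on the unstimulated and 11.3 on both zymosan arrays. Of 12 genes of granulocyte precursors, 11 were higher with zymosan. Their mean log2 level was 5.97 and 5.87 on the unstimulated and 7.71 and 7.81 on the zymosan arrays, and the part of those cells in the differences below was not tested. Shorter marker lists were measured for dendritic cells (3 genes), T or NK cells (3), stromal cells (2) and B cells (2), and among them 1 B cell gene fell. In RNA from a whole culture, fewer cells of a type and less RNA per cell cannot be told apart.

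The proteasome is the protease that degrades ubiquitin-tagged proteins. Its core is a barrel of alpha and beta rings, in which Psmb5, Psmb6 and Psmb7 carry the catalytic sites, and a regulatory cap of ATPases (Psmc) and other subunits (Psmd) unfolds the substrate. Interferons induce Psmb8, Psmb9 and Psmb10, which replace Psmb5, Psmb6 and Psmb7 in newly built particles, and the activator subunits Psme1 and Psme2. The resulting immunoproteasome favours peptides that fit MHC class I, and macrophages and other immune cells hold much of it at rest. The transporter of Tap1 and Tap2 carries those peptides into the endoplasmic reticulum, where Erap1 trims them and tapasin, the product of Tapbp, helps to place them on class I heavy chains paired with B2m.

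The induced subunits and the peptide loading genes lay lower with zymosan, and most constitutive subunits lay slightly higher. By limma's test 9 of the 53 measured members passed the threshold of adjusted p under 0.05 (Benjamini-Hochberg over 13222 genes). Tapbp, Tap1, Psme1, Psmb10 and Psmb2 fell, and Psmd11, Psmg1, Psmb6 and Psmd14 rose. Over all genes 16.8% were called, 10.1% as higher and 6.73% as lower, so the members taken as a whole were called about as often as other genes (17.0%). The calls fell unevenly over the roles. Among the 9 measured induced subunits and loading genes 4 fell and 0 rose by limma (0 rose at an unadjusted p under 0.05), and among the other 44 members 1 fell and 4 rose. Only Tapbp reached a 2-fold difference.

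Most calls were lost when either zymosan array was left out. Without zymosan replicate 1, and likewise without zymosan replicate 2, 1 of the 9, Tapbp, was past the threshold, and the 8 others had adjusted p-values of 0.0944 to 0.261 and 0.101 to 0.269. All genes were then called at 1.49% and 1.22% for higher and 0.998% and 0.756% for lower. With the hybridization day as a random block, too, Tapbp alone was past it (0.0561 to 0.160 for the 8 others). That block called 3.43% of all genes as higher and 2.32% as lower. Without unstimulated replicate 1, Psme1 and Psmg1 were lost, with differences of -0.39 and 0.38. Without unstimulated replicate 2, Psmd14 was lost (0.0696) and Psmb9 passed (0.0157). None of the 16 members named with full values changed sign in any of 11 alternatives, but most of these could not reverse a sign. In all 16 the groups did not overlap, so leaving out 1 array keeps the direction. Other filters, the block and an intensity trend in limma leave the differences as they are. Median centring moved every difference by the same small amount, which was too little to reverse a sign. Psmb7, with the smallest difference of the 16, went from 0.16 to 0.19. The mean of a gene's probe sets could reverse a sign only in Tapbp, Tap1, B2m, Erap1, Psmb8 and Psmd11, which have several kept probe sets. Quantile normalization could have done so in any of the 16.

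**Figure D1:**
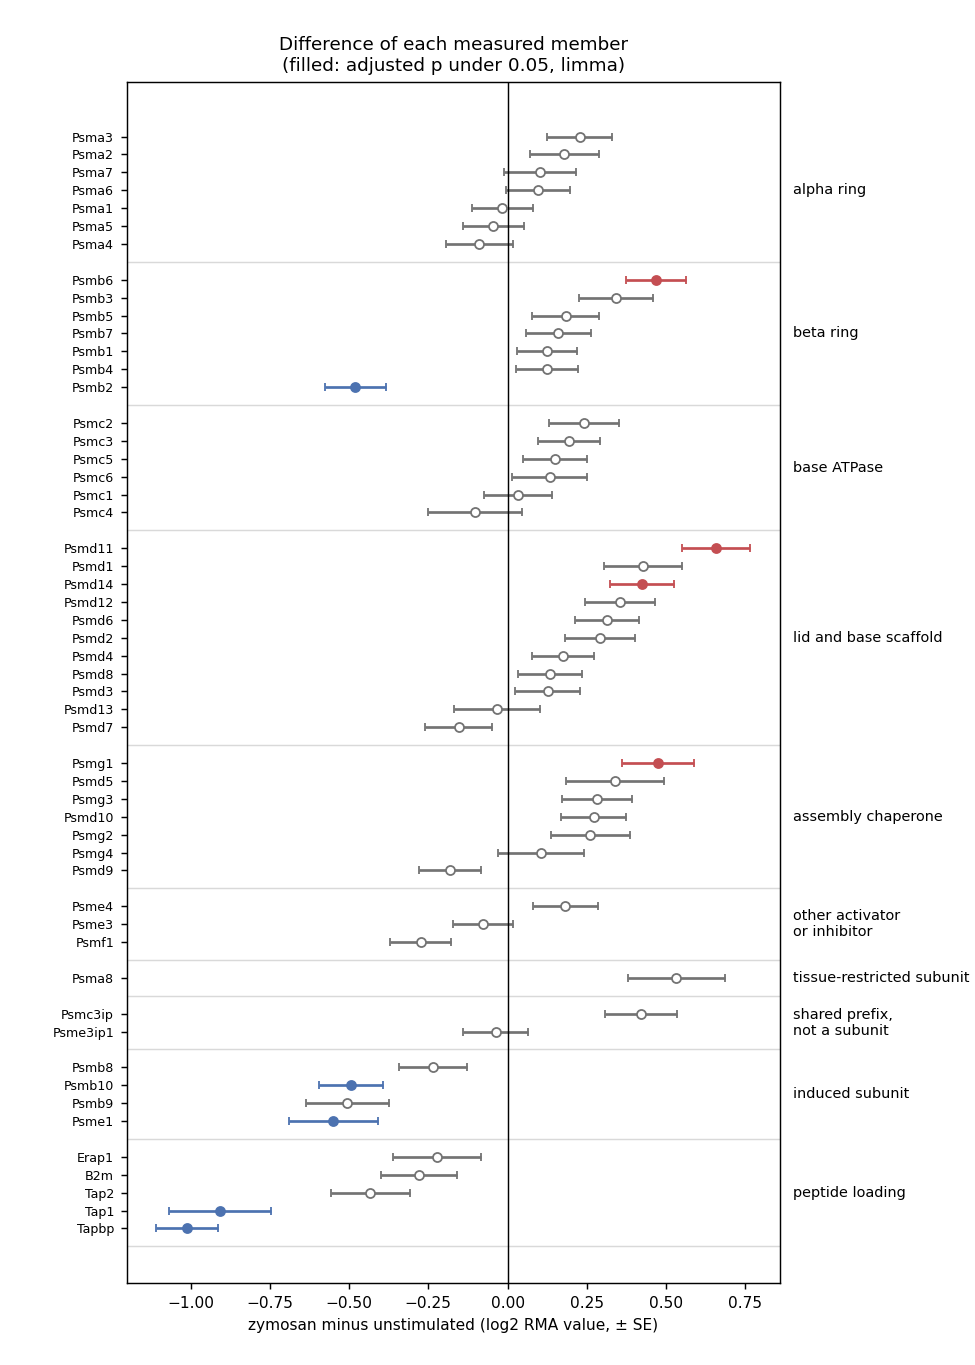
Each point is the difference of 1 measured member (zymosan minus unstimulated, log2 RMA value), with limma's standard error as the bar, grouped by role; filled points passed adjusted p under 0.05, red for higher and blue for lower. All 9 induced subunits and peptide loading genes lie left of 0, from -1.01 to -0.22, while 24 of the 31 constitutive subunits lie right of it.

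Tapbp had the largest difference of any member. Its log2 values were 10.89 and 10.81 on the unstimulated arrays and 9.83 and 9.85 on the zymosan arrays. The groups stood 0.96 apart at their nearest arrays, far beyond the spread within either pair. The difference was -1.01 (SE 0.10, adjusted p = 0.00354), or 2.01-fold lower, and in the order of all 13222 genes from the largest decrease it was number 209. The other probe set of Tapbp fell further, from 9.48 and 9.52 to 7.31 and 6.93, a 5.20-fold decrease (adjusted p = 0.00208 over all probe sets). Both probe sets fell, by unequal amounts, and which transcripts each one reads is not known here. Their mean differed by -1.69. Over all 11 alternatives Tapbp passed, with adjusted p-values up to 0.0497.

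Tap1, a subunit of the peptide transporter, also fell. It was at 9.03 and 8.61 on the unstimulated arrays and at 7.99 and 7.84 on the zymosan arrays. The unstimulated arrays differed by 0.42 between themselves, and the lower of them still stood 0.62 above the higher zymosan array. The difference was -0.91 (SE 0.16, adjusted p = 0.0174), 1.87-fold lower, and -0.69 without unstimulated replicate 1. A dimmer probe set of Tap1 was at 5.12 and 5.16 in unstimulated cells and below the filter's level on both zymosan arrays, a decrease of at least 1.71-fold against that level (adjusted p = 0.0166).

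Tap2, the partner of Tap1 in the transporter, read 7.57 and 7.44 on the unstimulated and 7.20 and 6.95 on the zymosan arrays. Its groups did not overlap, but at -0.43 (SE 0.12, adjusted p = 0.0662) the gene missed the threshold. B2m, the light chain of class I molecules, had values of 13.72 and 13.58 against 13.26 and 13.48. That difference of -0.28 (SE 0.12, adjusted p = 0.171) was near the spread between the zymosan arrays, and was -0.17 without zymosan replicate 1. The second B2m probe set differed by -0.31 (95% interval -0.58 to -0.04, unadjusted p = 0.0292, adjusted p = 0.111). Erap1 was at 8.35 and 8.25 against 7.90 and 8.25, so that zymosan replicate 2 almost met the lower unstimulated array. Its difference was -0.22 (95% interval -0.56 to 0.12), and -0.05 without zymosan replicate 1. At the brighter B2m probe set the interval ran from -0.58 to 0.01, and neither gene passed the test.

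Several of the genes that lay lower share a place in the genome. In RefSeq's GRCm38.p6 annotation Psmb9, Tap1, Psmb8 and Tap2 are consecutive protein-coding genes on chromosome 17, which also holds Tapbp, within the MHC. Psmb9 and Tap1 are read in opposite directions from a shared interval of 225 bases, shown whole because both genes lay lower. The 152 bases between the end of the neighbouring gene Zbtb22 and the start of Tapbp, the member with the largest difference, are shown beside it, where the noncoding gene Gm19412 also lies.
Psmb9-Tap1, chr17:34187331-34187555, Tap1 strand (+): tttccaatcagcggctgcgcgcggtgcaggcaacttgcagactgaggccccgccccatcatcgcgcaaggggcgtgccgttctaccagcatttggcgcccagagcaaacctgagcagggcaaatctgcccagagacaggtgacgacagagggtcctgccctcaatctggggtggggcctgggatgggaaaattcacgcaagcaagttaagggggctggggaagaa
Tapbp, chr17:33919326-33919477, + strand: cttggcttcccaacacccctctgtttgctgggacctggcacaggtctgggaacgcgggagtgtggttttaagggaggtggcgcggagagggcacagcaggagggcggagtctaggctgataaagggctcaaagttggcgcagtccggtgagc

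**Figure D2:**
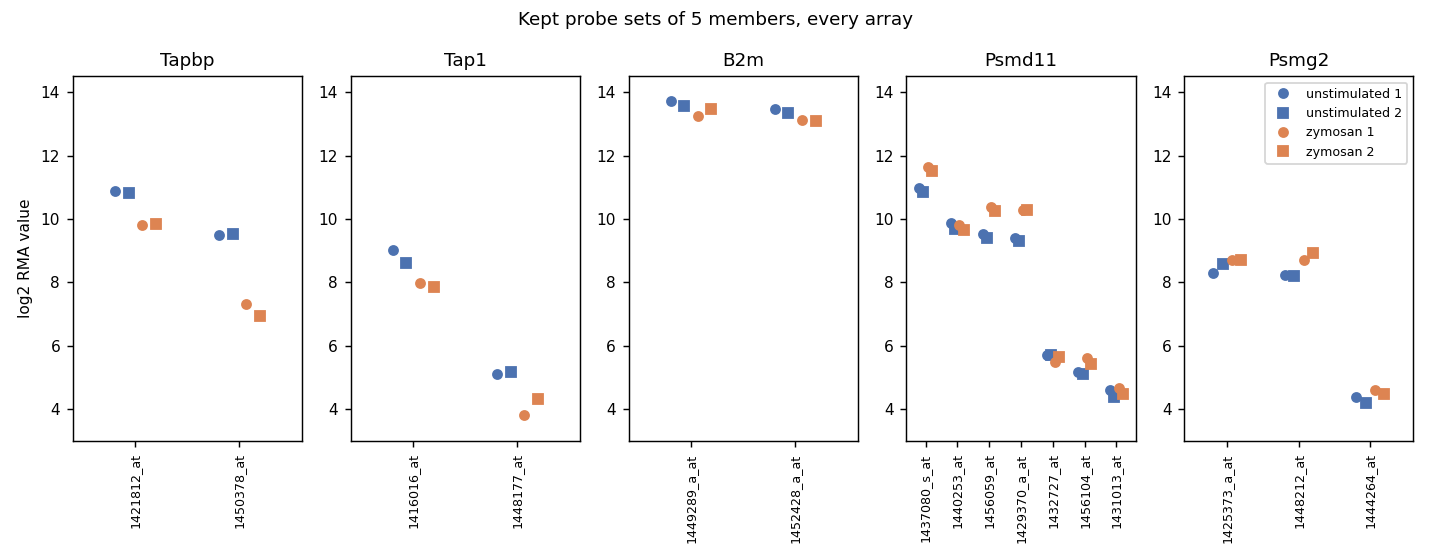
Log2 RMA values on every array (blue unstimulated, orange zymosan; circles replicate 1, squares replicate 2) for the kept probe sets of 5 members, each column being 1 probe set. Both Tapbp and both Tap1 probe sets are lower with zymosan, 3 of the 7 Psmd11 probe sets stand higher by 0.66 to 0.94, and the Psmd11 probe set at 9.88 and 9.69 in unstimulated cells does not.

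Among the induced subunits, Psme1 and Psmb10 fell. Psme1, which caps the core particle as part of the interferon-induced activator, went from 10.68 and 10.35 to 10.04 and 9.89, a difference of -0.55 (SE 0.14, adjusted p = 0.0477). It lay close to the threshold and missed it when arrays were centred on their medians (adjusted p = 0.0537) or no filter was used (0.0577). Psmb10 went from 10.04 and 9.99 to 9.58 and 9.46, a difference of -0.49 (SE 0.10, adjusted p = 0.0259). The unstimulated arrays of Psmb10 were close together, whereas those of Psme1 differed by 0.33.

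Psmb9 was at 9.66 and 9.39 on the unstimulated and 9.10 and 8.94 on the zymosan arrays. Its difference of -0.51 (SE 0.13) was as large as that of Psmb10 but missed the threshold (adjusted p = 0.0511), and it passed in 5 of 11 alternatives. Psmb8 was nearest to no difference, with 10.39 and 10.35 against 10.22 and 10.04. It differed by -0.24 (95% interval -0.50 to 0.03, adjusted p = 0.196), and by -0.14 without zymosan replicate 2. The median of the 4 measured induced subunits was -0.50 and that of the 5 loading genes -0.43, against 0.00 over all genes. In all 9 both unstimulated arrays lay above both zymosan arrays. Over all genes 28.2% had groups apart in that direction.

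**Figure D3:**
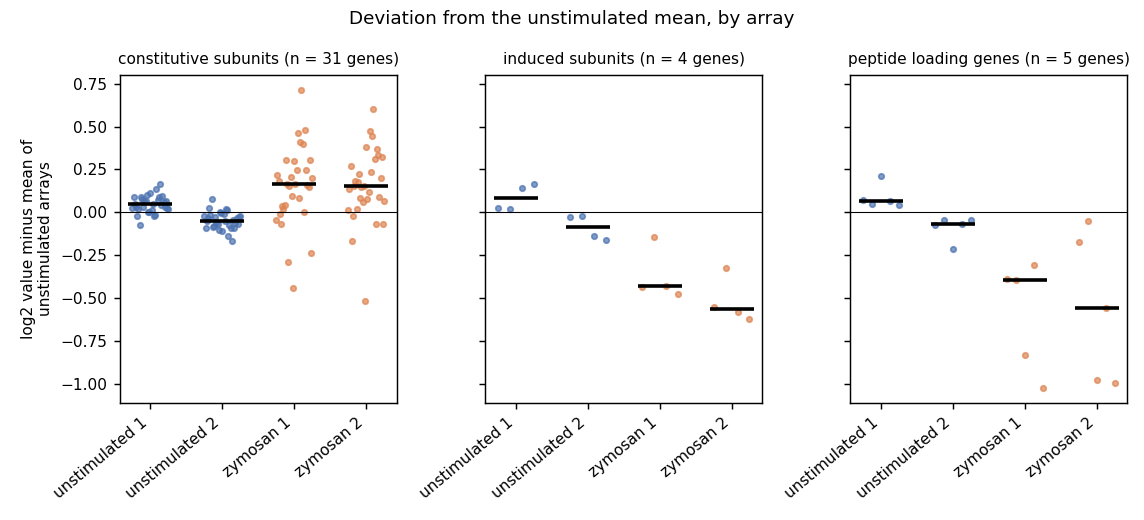
Each point is 1 gene's log2 value on an array minus that gene's mean over the unstimulated arrays, and the black bars are the medians of the class on that array. The medians of the constitutive subunits are 0.17 and 0.15 on the zymosan arrays, those of the induced subunits -0.43 and -0.57, and those of the loading genes -0.39 and -0.56.

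The unstimulated arrays were not level for most members. All 9 of these genes were higher on unstimulated 1 than on unstimulated 2, by a median of 0.13 (from 0.04 for Psmb8 to 0.42 for Tap1). So were 34 of the 44 other members, by a median of 0.08, among them all 6 base ATPases (0.15) and all 11 lid and base scaffold genes (0.13). The median over all genes was 0.04. Of a list of type I interferon response genes, 31 of 36 measured fell with zymosan and 0 rose by limma (0 at an unadjusted p under 0.05). Its median difference was -1.45, and 35 of the 36 were higher on unstimulated 1, by a median of 0.52. The mean log2 level of that list was 9.02 and 8.44 on the unstimulated and 7.21 and 7.02 on the zymosan arrays, and its part in the differences of the 9 genes was not tested. Against unstimulated 2 alone, the lower of the pair, the induced subunits had medians of -0.30 and -0.45 on the zymosan arrays, and the loading genes -0.35 and -0.49.

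Promoter windows of 300 bases (250 before the start and 50 after it, RefSeq, GRCm38.p6) were held for 45 of the 54 members. They were searched on both strands for an interferon-stimulated response element (GAAA, any 2 bases, GAAA), a STAT site (TTCNNNGAA), a kB site (GGGA, any base, TTTCC) and an antioxidant response element (TGACNNNGC). No overlap between sites of different motifs was found in these members' windows. The interferon element was in 3 of 8 windows of induced and loading genes and in 4 of 37 others, against 3.44% of all 32851 windows. The antioxidant element was in 0 of 8 and 6 of 37 (12.4% of all), the STAT site in 1 and 2 (8.30%) and the kB site in B2m alone (0.411%). None of these letters occurred in the windows of Tapbp, Tap1 or Psmb9. A match is only a run of letters and shows no binding. The sites of the induced and loading genes, and those of the 2 constitutive catalytic subunits that hold the antioxidant element, follow with the match in capitals.
B2m, interferon element, then kB site on the opposite strand, chr2:122147544-122147573, + strand: acatGAAACTGAAAatgGGAAAGTCCCttt
Psme1, interferon element on the opposite strand, chr14:55578493-55578522, + strand: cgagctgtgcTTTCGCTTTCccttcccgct
Erap1, interferon element on the opposite strand, chr13:74639839-74639868, + strand: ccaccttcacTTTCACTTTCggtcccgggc
Psmb8, STAT site, chr17:34198088-34198117, + strand: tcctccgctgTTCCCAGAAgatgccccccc
Psmb5, antioxidant element, chr14:54618023-54618052, - strand: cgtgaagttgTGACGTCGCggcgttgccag
Psmb6, antioxidant element, chr11:70525338-70525367, + strand: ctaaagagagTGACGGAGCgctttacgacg

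The catalytic subunits could be compared in pairs within each array, each induced subunit against the constitutive subunit that it replaces. Only changes between arrays are given, since probe sets of different genes share no scale, and the mean of the unstimulated arrays was set to 0. Psmb8 minus Psmb5 was -0.03 and 0.03 on the unstimulated and -0.39 and -0.44 on the zymosan arrays. Psmb9 minus Psmb6 was 0.16 and -0.16 against -0.89 and -1.06. Psmb10 minus Psmb7 was 0.04 and -0.04 against -0.52 and -0.79. In all 3 pairs both zymosan arrays lay below both unstimulated arrays, with mean differences of -0.42, -0.97 and -0.65. With 2 arrays against 2 the exact permutation test (2-sided) gave p = 0.333 for each pair, the smallest it can give.

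**Figure D4:**
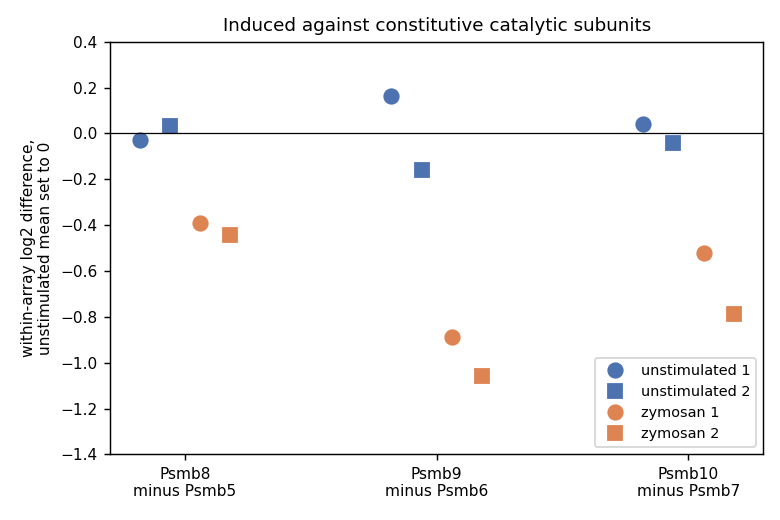
Points are within-array log2 differences between an induced catalytic subunit and its constitutive counterpart (blue unstimulated, orange zymosan; circles replicate 1, squares replicate 2), with the unstimulated mean of each pair set to 0. The zymosan arrays lie at -0.39 and -0.44, -0.89 and -1.06, and -0.52 and -0.79 for the 3 pairs, below all unstimulated arrays.

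Of the 3 constitutive counterparts, Psmb6, the caspase-like catalytic subunit, rose by limma's test. It went from 10.79 and 10.84 to 11.28 and 11.29, a difference of 0.47 (SE 0.09, adjusted p = 0.0251). Psmb5, the chymotrypsin-like subunit, differed by 0.18 (95% interval -0.07 to 0.44) and Psmb7, the trypsin-like subunit, by 0.16 (-0.09 to 0.41), and neither passed. Psmb5 was at 0.12 without zymosan replicate 1, and Psmb7 at 0.09 without zymosan replicate 2. The other members of the beta ring do not cleave substrates. Psmb2 among them fell, from 10.36 and 10.35 to 9.91 and 9.83, by 0.48 on the log2 scale (SE 0.10, adjusted p = 0.0244). Psmb3 (0.34), Psmb1 (0.13) and Psmb4 (0.12) did not pass. Psmb2 thus stood apart from the 6 other constitutive beta subunits, all of which had differences above 0 on their brightest probe sets. The dimmer Psmb4 probe set differed by -0.05 (10.78 and 10.81 against 10.73 and 10.76).

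The alpha ring, which gates entry to the barrel, had a median difference of 0.10. Of its 7 members, Psma1 to Psma7, 0 passed limma's test, with a smallest adjusted p of 0.186, and 0 had an unadjusted p under 0.05. The differences ran from -0.09 for Psma4 to 0.23 for Psma3. For Psma1, Psma4, Psma5 and Psma7 the arrays of the groups overlapped. These values are those of the brightest probe set. Dimmer ones of 3 members were higher at an unadjusted p under 0.05 without passing limma's test. A dim Psma3 probe set differed by 1.10 (4.69 and 5.42 against 5.90 and 6.40, adjusted p = 0.0534), both others of Psma6 by 0.30 and 0.32, and the other of Psma7 by 0.30. The base ATPases Psmc1 to Psmc6, which unfold substrates and thread them into the core, also had 0 of 6 past the test (0 at an unadjusted p under 0.05), from -0.10 (Psmc4) to 0.24 (Psmc2). The other Psmc4 probe set lay the other way, with 9.68 and 9.53 against 9.88 and 9.86. It differed by 0.26 without passing limma's test (adjusted p = 0.172 over all probe sets). Of the 53 members, 13 higher and 8 lower had an unadjusted p under 0.05. The share of all genes at that unadjusted threshold was not counted in any fit, so these counts have no background.

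The lid and the scaffold of the base, which bind and strip ubiquitin chains, had a median of 0.29 over 11 members, and 2 rose. Psmd11, a scaffold subunit of the lid, went from 10.99 and 10.85 to 11.63 and 11.52, a difference of 0.66 (SE 0.11, adjusted p = 0.0139), or 1.58-fold. It was the largest increase among the measured members and number 715 in the order of all genes from the largest increase. Of the 7 kept Psmd11 probe sets, 3 rose, by 0.66, 0.85 and 0.94, and 0 fell by limma (0 with an unadjusted p under 0.05 and lower). Another bright one differed by -0.06 (adjusted p = 0.800), so the probe sets of this gene did not read alike. Their mean over all 7 differed by 0.38. Psmd14, the deubiquitinase of the lid, went from 11.25 and 11.16 to 11.68 and 11.57, a difference of 0.42 (SE 0.10, adjusted p = 0.0413), and missed the threshold with no filter (0.0530).

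The remaining lid and base subunits did not pass. The ubiquitin-binding scaffold genes Psmd1 (0.43, adjusted p = 0.0668) and Psmd2 (0.29), and the lid genes Psmd12 (0.35), Psmd6 (0.31), Psmd8 (0.13) and Psmd3 (0.13), had both zymosan arrays above both unstimulated arrays. So did Psmd4 (0.17), a ubiquitin receptor. Psmd7 (-0.15), the partner of Psmd14, had both below, and the arrays of Psmd13 overlapped (-0.03). All of these are values of the brightest probe sets. The groups overlapped on the other Psmd6 probe set (0.03) and on both other Psmd4 probe sets (-0.01 and -0.02). A dimmer Psmd7 probe set lay higher with zymosan (0.21) without passing. A dim probe set of Psmd13 rose, at least 1.33-fold against the filter's level, which neither unstimulated array reached (adjusted p = 0.0243). On their brightest probe sets, 21 of the 31 constitutive subunits had zymosan arrays wholly above the unstimulated ones and 2 wholly below. Over all genes those shares were 32.4% and 28.2%. Their median was 0.15.

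Of the assembly chaperones, which build the particle and then leave it, Psmg1 rose. It went from 8.38 and 8.57 to 8.998 and 8.896, a difference of 0.47 (SE 0.11, adjusted p = 0.0405). It missed the threshold after quantile normalization (0.0580) and with no filter (0.0504). Its partner Psmg2 had a difference of 0.26 on its brightest probe set, and rose by 0.60 on another (8.24 and 8.21 against 8.71 and 8.93, adjusted p = 0.0295 over all probe sets). The other chaperones of the core, Psmg3 (0.28) and Psmg4 (0.11), and those of the base, Psmd5 (0.34), Psmd10 (0.27) and Psmd9 (-0.18), did not pass. The alternative activators Psme3 (-0.08) and Psme4 (0.18) and Psmf1 (-0.27), an inhibitor of the core in the test tube, did not pass either. Nor did Psma8, the testis-specific alpha subunit, which was dim at 4.71 and 4.51 against 4.96 and 5.32, or the prefix-sharing Psmc3ip (0.42) and Psme3ip1 (-0.04). Over all probe sets, 6 of the 96 kept ones rose and 6 fell, beside 8.48% and 7.45% of all probe sets. Groups stood apart without overlap on 30.4% (higher) and 30.2% (lower) of all probe sets, the background for the probe set values above. No member had probe sets called in opposite directions.

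Partners of the pathway outside the rule were called about as often as other genes. Of 30 measured genes of class I folding, ubiquitin handling and proteasome control, 3 rose (10%, against 10.1% of all genes) and 2 fell (6.67%, against 6.73%), with a median of 0.13. Irf1, an activator of class I and immunoproteasome genes, rose 4.17-fold, from 8.61 and 8.45 to 10.70 and 10.48 (adjusted p = 0.000812), the opposite direction to the 9 genes. Nfe2l2 (0.56, adjusted p = 0.0206), the antioxidant regulator NRF2, and Uchl5 (0.50, adjusted p = 0.0272), a deubiquitinase of the cap, were the other increases. Pdia3, the disulfide isomerase that is joined to tapasin in the loading complex, fell from 12.02 and 12.36 to 11.54 and 11.06 (-0.89, SE 0.19, adjusted p = 0.0314), and Ubqln2, a ubiquitin shuttle, fell by 0.46. The next 3 partners, which did not pass, are named after their values were seen. All 3 lay below 0, whereas 21 of the 30 partners had differences above 0. Nlrc5, the class I transactivator, differed by -0.33 without passing (adjusted p = 0.198). The heavy chain genes H2-K1 (-0.08) and H2-D1 (-0.10), whose near-identical relatives may share probes, did not pass.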

How the data were processed

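The authors deposited log2 values from RMA, a name taken from the submitters' processing notes, for each probe set of each array. RMA corrects background, equalizes the arrays' distributions and summarizes the probes of a set. Neither its version nor the set of arrays it was run on is stated. The scanner settings files (other values, deposited by the authors) gave chip type, day, operator and project only. Array medians were 4.92 to 4.95.

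Of 45037 probe sets that are not controls, 34945 had 1 symbol, 932 several and 9160 none in the platform annotation. Probe sets that reached an array's 40th percentile in at least 2 arrays were kept (27571), and the brightest on average stood for its gene (13222 genes). Where all arrays of a group lay below that level (4.36 to 4.39), the fold is a bound against it. The tests used limma 3.58.1 (lmFit, then eBayes, in R 4.3.3), 2-sided, in all 4 arrays without covariates, with Benjamini-Hochberg adjustment over all genes, or over all probe sets where stated. SEs are limma's, and the number of arrays limits precision. The fit was tested on simulated data. The members and gene lists were chosen with earlier results of these data known. The text names the induced subunits, their 3 counterparts, the loading genes and the 10 largest called differences in each direction with full values, every other member once, and called partner genes. Where duplicateCorrelation gave no value, the day correlation (0.567) was set from the mean variances within and between days. The variance within a day came from the zymosan arrays alone and that between days from the unstimulated arrays alone. The correlation used for the block therefore cannot separate day from group.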

Additional observations from a re-analysis of the deposited data

How the results depend on the processing

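The medians of the 3 classes and the differences between paired catalytic subunits kept their direction under every alternative run. These were no filter, a filter at the 60th percentile, the mean of a gene's probe sets, median centring, quantile normalization, an intensity trend, the day as a random block and leaving out each array in turn. The pair differences do not depend on the trend or the block and were not rerun there. The filters, the trend and the block left the 3 medians unchanged, and the filters and median centring left the pair differences unchanged. Those runs therefore say nothing about direction. The mean of probe sets also left unchanged the medians of the induced subunits and loading genes, and the pair differences except Psmb8 minus Psmb5. Median centring moved the 3 medians by the same small amount, too little to reverse them. They went from -0.50 to -0.47 (induced), -0.43 to -0.41 (loading) and 0.15 to 0.17 (constitutive). In the pairs, the induced subunits and the loading genes the groups did not overlap, so leaving out 1 array could not reverse a direction either. With all arrays 4 members rose and 5 fell, and 6 of their probe sets rose and 6 fell. With the day as a random block limma called 0 members higher (6 at an unadjusted p under 0.05) and 1 lower. It called 2 probe sets each way. Over all genes the block gave 3.43% higher and 2.32% lower, against 10.1% and 6.73% in the main fit. Without a filter 2 members rose and 4 fell, beside 6.32% and 4.3% of all genes. With an intensity trend 6 members rose and 6 fell, beside 11.7% and 7.57% of all genes. In that run 11 probe sets rose and 9 fell, and the share of all probe sets was not counted. The calls over all genes thus also became fewer under the block and with no filter, and more frequent with the trend. In both directions they also became more frequent when either unstimulated array was left out, and fewer when either zymosan array was. The ranges of member counts that follow therefore go with changes over all genes. Leaving out 1 array gave 0 to 9 members higher, 1 to 6 lower, 0 to 7 probe sets higher and 1 to 6 lower. Limma gave the 0 when either zymosan array was missing, with 5 (replicate 1 missing) and 4 (replicate 2 missing) members higher at an unadjusted p under 0.05. The median of the induced subunits was then -0.58 to -0.38 and that of the loading genes -0.56 to -0.37. The cause of the changes under the block, the trend and no filter was not tested, and leaving out an array also removes a residual degree of freedom. No paired analysis was possible because the labels give the arrays no shared replicate numbers. With 2 arrays a group, the smallest called difference among members was 0.42 and the largest not called 0.53.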
